A study of Mus musculus with 20 samples.

Results

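The DNA methylation writers and erasers followed here are 8 genes. The writers are Dnmt1, Dnmt3a and Dnmt3b, with their partners Dnmt3l and Uhrf1, and the erasers are Tet1, Tet2 and Tet3. ATAC-seq peaks of all 20 libraries were merged into 335775 regions, and the members are the 165 regions that lay in the spans of these genes or within 10 kb of them on mm10. The windows held 39 regions at Dnmt3a, 32 at Tet1, 32 at Tet3, 27 at Tet2, 14 at Dnmt1, 9 at Dnmt3l, 8 at Dnmt3b and 4 at Uhrf1. Of the 165 regions, 43 were promoter elements, which means that they reached to within 2 kb of the start of a protein-coding transcript of the gene. Another 92 were intronic, 6 exonic, 18 flanking and 6 near the start of a neighbouring gene.

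The libraries came from mouse embryonic fibroblasts (MEFs), from embryonic stem cells (ESCs), and from MEFs given Oct4 with native Nanog or with NanogN70 by retroviruses. NanogN70, also called NanogBiD, is NANOG carrying at its N-terminus the part of SS18 that binds BRG1 in the BAF chromatin remodeler. The MEFs came from embryos with an Oct4-GFP reporter (OG2 males crossed with 129 females). The ESCs came from OG2 embryos, so untransduced, transduced and ESC samples shared this reporter. No 129 parent is named for the ESCs, so the strain background may differ between ESCs and the other samples. Day 0 followed the infections, the cells grew in iCD3 medium to day 7, and the medium was then N2B27 with 2i and LIF, in which the ESCs were also kept. Transduced cultures are mixtures in which only some cells reprogram, so fewer open cells and less open chromatin per cell cannot be told apart here. MEFs gave a single library, ESCs gave 3, and each path gave 8, one on each of days 0 and 1, then 3, 5, 7 and 8, and last 10 and 12. ESC libraries were grouped by sample title, since another label field calls them MEFs. Of 10 ESC marker genes, 7 had a promoter peak in MEFs and 9 or 10 in each ESC library, and the 3 without one in MEFs were Zfp42, Dppa4 and Dppa5a. Fibroblast markers had promoter peaks for 8 of 8 genes in MEFs and 7 of 8 in each ESC library, so a promoter peak alone does not mark a fibroblast. Each path has 1 library per day, and the sources used here do not say whether the days came from separate transductions.

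Methylation at CG dinucleotides is copied after replication by DNMT1, which UHRF1 brings to hemimethylated DNA. DNMT3A and DNMT3B set new methylation, and DNMT3L, which has no catalytic activity of its own, stimulates them. TET1, TET2 and TET3 oxidise 5-methylcytosine and so open the way to its loss. Somatic cells rely largely on DNMT1 and DNMT3A, while ESCs also use DNMT3B, DNMT3L, TET1 and TET2.

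The values below are relative pileups, the summit height of a peak in tags divided by the median height in the same library over the 14213 regions with a peak in every library. A value of 1 is thus the height of a typical constitutive peak, and 0 means that no peak was called, which does not show that the site was closed. The medians used as divisors were 39 in MEFs, 29 to 38 in ESCs, 16 to 38 with Nanog and 16 to 60 with NanogN70. The highest, 60, belonged to the NanogN70 day 3 library, which stood apart. In it 9 of 10 lymphocyte marker genes had a promoter peak, against 1 or 2 in every other transduced library, 3 in MEFs and 4 to 6 in ESCs. Among the members, 13 regions had a peak in that library and in no other. Results that rest on it are given with and without it, and its part in the other results was not tested.

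The sequences of 7 elements to which the results return are shown here, read from GRCm38 (the assembly that mm10 names) on the strand of the gene. The first pair are the 150 bases before the Dnmt1-201 and Dnmt3l-201 starts, of which one lay in the promoter that rose with time and the other in a promoter with a peak in ESCs alone. The Tet2 and Dnmt3a sequences are 151 bases around the summit of the most open intronic Tet2 element in ESCs and of an element open with NanogN70 alone. In these 4 sequences capitals mark CG dinucleotides, the substrate of the enzymes.
Dnmt1-201 upstream, chr9:20952980-20953129, minus strand: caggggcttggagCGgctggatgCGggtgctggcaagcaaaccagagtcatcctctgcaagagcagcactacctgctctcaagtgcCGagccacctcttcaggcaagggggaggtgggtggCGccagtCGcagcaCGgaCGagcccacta
Dnmt3l-201 upstream, chr10:78049692-78049841, plus strand: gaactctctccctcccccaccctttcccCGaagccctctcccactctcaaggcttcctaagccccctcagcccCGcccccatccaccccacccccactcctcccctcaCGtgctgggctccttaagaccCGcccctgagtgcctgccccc
Tet2 intronic element, chr3:133534215-133534365, minus strand: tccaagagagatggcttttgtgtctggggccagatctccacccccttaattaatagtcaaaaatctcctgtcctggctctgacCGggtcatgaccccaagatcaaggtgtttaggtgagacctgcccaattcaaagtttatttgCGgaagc
Dnmt3a downstream element, chr12:3921713-3921863, plus strand: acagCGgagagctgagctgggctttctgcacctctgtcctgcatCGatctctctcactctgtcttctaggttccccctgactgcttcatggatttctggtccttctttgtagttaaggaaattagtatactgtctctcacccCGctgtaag

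The other 3 sequences hold a motif of a transcription factor family, which the capitals mark. TGANTCA is the core site of AP-1, a family of factors active in fibroblasts, and TGCAAAT is a site of OCT factors, to which Oct4 belongs. The AP-1 letters read the same on both strands.
Tet1 upstream element, chr10:62896639-62896789, minus strand: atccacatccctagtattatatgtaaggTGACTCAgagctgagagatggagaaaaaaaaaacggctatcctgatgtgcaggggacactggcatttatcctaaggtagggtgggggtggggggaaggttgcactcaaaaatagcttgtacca
Tet3 early element, chr6:83371518-83371668, minus strand: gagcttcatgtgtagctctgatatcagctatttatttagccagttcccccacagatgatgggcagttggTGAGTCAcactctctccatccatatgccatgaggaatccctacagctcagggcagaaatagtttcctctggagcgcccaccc
Tet3 NanogN70 element, chr6:83450488-83450638, minus strand: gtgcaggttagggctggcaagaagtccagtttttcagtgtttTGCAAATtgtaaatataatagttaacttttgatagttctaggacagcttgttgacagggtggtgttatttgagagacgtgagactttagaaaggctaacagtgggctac

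Both strands were searched in the 151 bases around the summit of every region. TGANTCA was found in 14.9% of all regions and TGCAAAT in 4.26%. Among the members TGANTCA was in 21 of 165 regions, in 8 of the 20 that had a peak in MEFs but none in ESCs (40.0%, against 35.1% of all such regions), and in 6 of the 47 that were open in ESCs and not in MEFs (12.8%, against 4.80%). TGCAAAT was in 8 of 165 member regions. The SOX letters ACAATGG were in 6 (3.64%, against 2.72% of all regions) and the KLF letters CACACCC in 10 (6.06%, against 5.02%). The ESRRB letters AAGGTCA were in 2, the TEAD letters GGAATGT in 7, the ETS letters CCGGAAG in 1 and the E2F letters TTGGCGC in 1, against 2.67%, 4.21%, 1.54% and 0.483% of all regions. None of these motifs contains another. The median number of CG dinucleotides in the window was 9 in the members open in both MEFs and ESCs, 3 in those open in ESCs and not in MEFs, and 2 in those open in MEFs and not in ESCs. Over the genome it was 5, 2 and 1 in the regions of these classes, and 2 in all regions.

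The regions of these genes held a higher share of ESC regions and a lower share of MEF regions than the genome as a whole. Of the 165 regions, 47 were ESC-only, with a peak in at least 2 of 3 ESC libraries and none in MEFs (28.5%, against 16.5% of all regions). There were 20 MEF-only regions, with a peak in MEFs and in no ESC library (12.1%, against 22.2%), and 23 shared regions, with a peak in MEFs and all 3 ESC libraries (13.9%, against 9.34%). The genes split by class. Tet1 had 14 ESC-only and 2 MEF-only regions, Tet2 had 13 and 1, Dnmt3b had 5 and 0, and Dnmt3l had 5 and 0. Tet3 went the other way with 2 ESC-only and 9 MEF-only regions, Dnmt1 had 2 and 4, and Dnmt3a had 6 and 4. Uhrf1 had neither. These counts have no test. There were 12 regions with a peak in all 20 libraries (7.27%, against 4.23%) and 52 with a peak in 1 library alone (31.5%, against 41.4%).

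Every one of the 8 genes had a promoter peak in the MEF library, in the 3 ESC libraries and in 14 of the 16 transduced libraries. The exceptions were the Nanog libraries of days 0 and 1, which lacked one at Dnmt3l alone. Over the genome, 53.0% of 21829 protein-coding genes had a promoter peak in all 20 libraries and 69.3% had one in MEFs. Of the 43 promoter elements, 7 were open in all 20 libraries and 13 were ESC-only, of which 7 were at Tet1 and 4 at Dnmt3l.

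**Figure D1:**
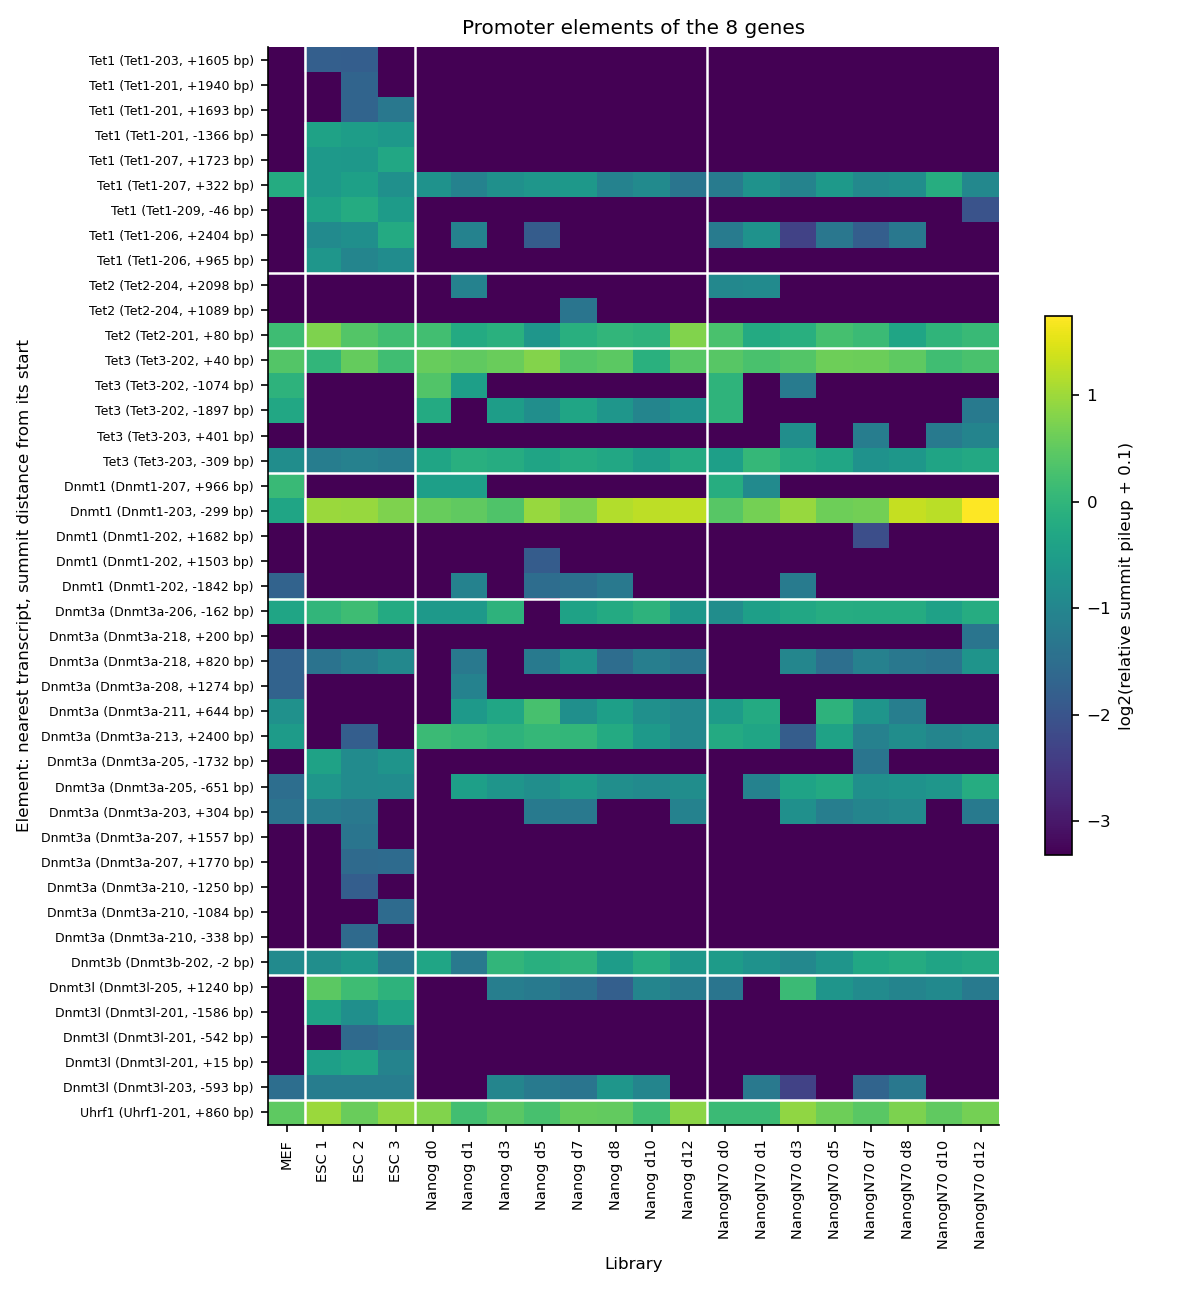
Each line is 1 of the 43 promoter elements, named by the nearest coding transcript and the distance of its summit from that start in bp (downstream positive), and each column is 1 library. Colour is log2 of the relative summit pileup plus 0.1, and the darkest colour is no peak. One element each of Tet1, Tet2, Dnmt1, Dnmt3b and Uhrf1 and both Tet3 start elements were open in every library, while the 13 ESC-only elements stood at Tet1, Dnmt3a and Dnmt3l.

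Among the maintenance genes, the Dnmt1 promoter rose with time. The element at chr9:20952038-20953281 covers the starts of Dnmt1-201, Dnmt1-203 and Dnmt1-207. Its relative pileup was 0.69 in MEFs and 1.88, 1.84 and 1.59 in the 3 ESC libraries. Over the 8 days in order the Nanog libraries gave 1.38, 1.31, 1.17, 1.86, 1.58, 2.12, 2.26 and 2.29. The NanogN70 libraries gave 1.25, 1.5, 1.83, 1.43, 1.47, 2.35, 2.21 and 3.24 on the same days. All transduced libraries lay above the MEF library, and the 6 libraries of days 8 to 12 lay above the 6 of days 0 to 3 and above the 3 ESC libraries, with the highest value on NanogN70 day 12. Days 8, 10 and 12 were compared with days 0, 1 and 3 by limma on log2(relative pileup + 0.1) with path as a term, over the 145869 regions with a peak in at least 3 libraries and with Benjamini-Hochberg adjustment. The Dnmt1 promoter was higher late by 0.74 (SE 0.11, adjusted p = 0.00611) on the log2 scale, and by 0.80 (adjusted p = 0.00177) without the NanogN70 day 3 library. Scaled instead by the median over all peaks of a library, the difference was 0.86 and did not pass the threshold (adjusted p = 0.148). Within the Nanog libraries alone it was 0.75 (adjusted p = 0.226) and within the NanogN70 libraries alone 0.73 (adjusted p = 0.257), neither past the threshold. The switch of medium after day 7 and time cannot be told apart. Against days 10 and 12 the ESC libraries differed by -0.46 (SE 0.16, adjusted p = 0.0741).

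A second Dnmt1 element lay just inside the gene at chr9:20951302-20951838, with its summit 966 bp downstream of the Dnmt1-207 start. It was MEF-only, at 0.97 in MEFs, and was open on days 0 and 1 of both paths (0.62 and 0.62 with Nanog, 0.79 and 0.44 with NanogN70). It had no peak from day 3 on in either path. In the comparison of late with early libraries it was -1.88 (SE 0.62, adjusted p = 0.138), and it passed the threshold without the NanogN70 day 3 library (-2.30, adjusted p = 0.0343). Its late values are all 0, and outside the early days it had a peak in MEFs alone, so it met the filter through the days when it was high. The upstream start of Dnmt1-202 had a MEF-only element at chr9:20961590-20961906, with 0.21 in MEFs, peaks on 4 Nanog days and 1 NanogN70 day. Another 2 Dnmt1 promoter elements had a peak in 1 library each.

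Within the gene, chr9:20943413-20944336 was open in MEFs at 0.74, in ESCs at 0.28, 0.34 and 0.31 and on all 8 Nanog days. It ranged from 0.25 to 1.25 (median 0.55) with Nanog and from 0 to 0.62 (median 0.27) with NanogN70, with no peak on NanogN70 days 10 and 12. The difference NanogN70 minus Nanog, from limma with day as a term, was -1.07 (SE 0.23, adjusted p = 0.137). The intronic element chr9:20916258-20916537 was ESC-only, at 0.45 ± 0.10 (SD, n = 3) in ESCs, and had a peak on days 1, 3, 5, 7 and 8 with Nanog and on days 0 and 3 with NanogN70. Beyond the end of the gene, chr9:20901891-20902320 stood at 0.26 ± 0.10 in ESCs and had no peak anywhere else.

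UHRF1 is the reader that recruits DNMT1, and its promoter was open throughout. The element chr17:56302701-56304665 stood at 1.31 in MEFs and at 1.88, 1.39 and 1.76 in ESCs. It ranged from 1.04 to 1.71 (median 1.30) with Nanog and from 1.00 to 1.77 (median 1.38) with NanogN70. The groups overlapped, and none of the comparisons reached the threshold. Late minus early was 0.15 (SE 0.17, adjusted p = 0.633). The flanking element chr17:56332917-56333397, downstream of the gene, was low in MEFs (0.13) and stood at 0.67 ± 0.19 in ESCs (SD, n = 3). It was open on 3 days with Nanog and on 5 with NanogN70, and the difference ESC minus days 10 and 12 was 2.30 (SE 0.68, adjusted p = 0.045). The highest region of the Uhrf1 window, chr17:56325117-56326434, lies at the start of Kdm4b, a histone demethylase gene.

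**Figure D2:**
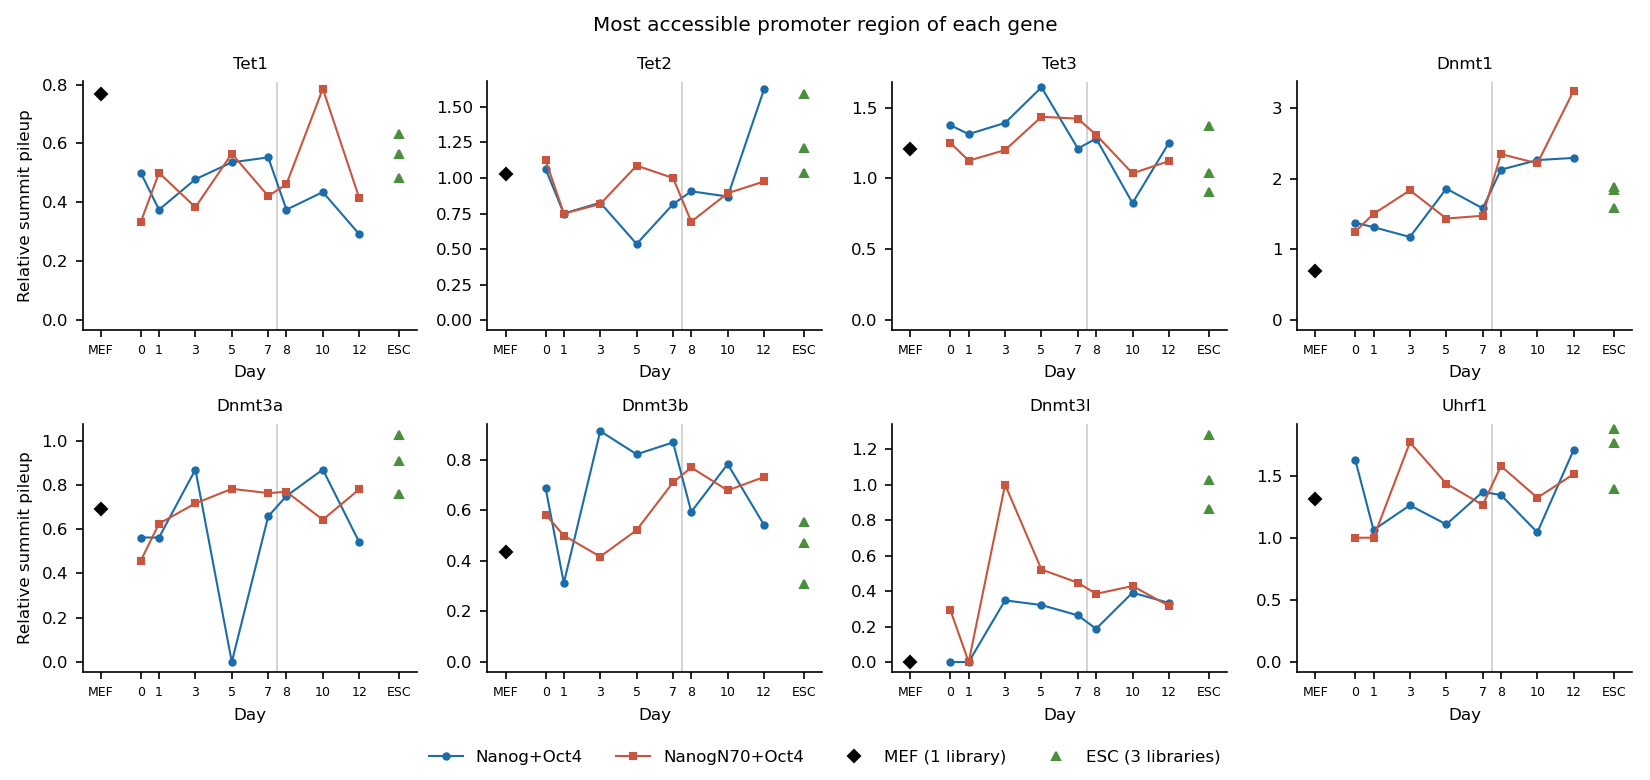
Relative summit pileup (vertical axis, 1 is the library median at constitutive regions) of the most open promoter region of each gene by day, with 1 point per library, and with the MEF library at the left and the 3 ESC libraries at the right. The grey line marks the change of medium after day 7, and each panel has its own scale. Dnmt1 lay between 1.17 and 1.83 on days 0 to 3 and between 2.12 and 3.24 on days 8 to 12, while the values of these days overlapped at Tet1, Tet2, Tet3 and Uhrf1.

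Of the de novo genes, Dnmt3a makes a long form from starts near the beginning of the gene and the shorter DNMT3A2, the main form in ESCs, from an internal start at Dnmt3a-203. The element at the first starts, chr12:3805932-3807134, stood at 0.69 in MEFs and 0.91, 1.03 and 0.76 in ESCs. It ranged from 0 to 0.87 (median 0.61) with Nanog, where day 5 alone had no peak, and from 0.46 to 0.78 (median 0.74) with NanogN70. The ESC values overlapped those of the transduced libraries. A second element at chr12:3807472-3809029, 820 bp downstream of the Dnmt3a-218 start, had no peak on days 0 and 3 with Nanog and on days 0 and 1 with NanogN70. It was open in all 6 libraries of days 8, 10 and 12, at 0.25, 0.35 and 0.29 with Nanog and 0.31, 0.29 and 0.51 with NanogN70. Late minus early was 1.36 (SE 0.48, adjusted p = 0.15) with all libraries, and 1.70 (adjusted p = 0.0366) without NanogN70 day 3, in which the element stood at 0.40.

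Around the internal start of Dnmt3a 4 elements followed different courses. The one just upstream, chr12:3890722-3891709, was open in MEFs (0.26) and ESCs (0.53, 0.45 and 0.45) and on every day except day 0 in both paths. The one over the start, chr12:3891742-3893074, was open on 3 days with Nanog and on 5 with NanogN70. Further upstream, chr12:3889686-3890292 was ESC-only at 0.66, 0.45 and 0.52 and had a peak in 1 transduced library, NanogN70 day 7. The fourth, chr12:3887261-3888067, between Dnmt3a-213 and the internal start, was open in MEFs (0.59) and on all 16 transduced days but in 1 of 3 ESC libraries. It ranged from 0.42 to 1.00 (median 0.90) with Nanog and from 0.18 to 0.75 (median 0.45) with NanogN70. ESCs were lower than days 10 and 12, with a log2 difference of -1.96 (SE 0.40, adjusted p = 0.0105). A MEF-only promoter element, chr12:3866663-3867210 near Dnmt3a-211, was open on 7 days with Nanog and 5 with NanogN70.

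Inside Dnmt3a, chr12:3824865-3825216 was MEF-only at 0.72, and its window holds TGANTCA. Over the 8 days the values were 0.44, 0.50, 0.22, 0.36, 0.18, 0, 0 and 0 with Nanog and 0.71, 0.44, 0, 0, 0, 0, 0 and 0 with NanogN70. Peaks lasted to day 7 with Nanog and to day 1 with NanogN70, and no library of days 8 to 12 had one. Late minus early was -2.02 (SE 0.46, adjusted p = 0.0398). With a pseudocount of 0.25 it was -1.22 and with a minimum score of 100 it was -0.84, neither past the threshold. Right beside it, chr12:3825259-3826106 was higher in ESCs, at 0.53, 0.63 and 0.55 against 0.21 in MEFs. It had a peak on NanogN70 days 3 and 12 and on no Nanog day, and ESC minus late was 2.35 (SE 0.43, adjusted p = 0.00613). The ESC-only elements chr12:3817080-3817401 and chr12:3852579-3852973 stood at 0.44 ± 0.087 and 0.62 ± 0.14 (SD, n = 3). The first was open on NanogN70 days 3, 7 and 12, the second on NanogN70 day 3 alone, and neither on a Nanog day.

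The Dnmt3a downstream element printed above, chr12:3921224-3921973, had no peak in MEFs, in ESCs or on any Nanog day. With NanogN70 it was 0.29, 0.31, 0.13, 0.52, 0.26, 0, 0 and 0 over the 8 days, open from day 0 to day 7 and in none of the libraries after the change of medium. On the log2 scale NanogN70 minus Nanog was 1.22, and the change from days 0 to 3 to days 8 to 12 was -1.75 for NanogN70 minus Nanog. The element met the filter of 3 libraries through NanogN70 alone, has Nanog values that are all 0, and was chosen after its values were seen, so both differences are descriptions without a test.

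Dnmt3b, which is expressed in pluripotent cells, had a single promoter element, chr2:153649012-153650396, open in all 20 libraries. It stood at 0.44 in MEFs and 0.47, 0.55 and 0.31 in ESCs, and ranged from 0.31 to 0.91 (median 0.74) with Nanog and from 0.42 to 0.77 (median 0.63) with NanogN70. The MEF value lay between the ESC values, and ESC minus late was -0.54 (SE 0.19, adjusted p = 0.0819). Its 5 ESC-only regions lay outside the promoter, 2 upstream, 2 in introns and 1 at a neighbouring gene, and 1 of the intronic ones had a peak in 2 ESC libraries and nowhere else. The upstream element chr2:153642904-153643444 stood at 0.84, 0.61 and 0.69 in ESCs and at 0.16 on NanogN70 day 7, with no other peak. Its window holds ACAATGG. The upstream element chr2:153639350-153639747 stood at 0.31 ± 0.069 (SD, n = 3) in ESCs and also had a peak on NanogN70 day 7 alone, and the intronic element chr2:153651745-153652016 stood at 0.42 ± 0.058 with no peak in any transduced library. The ESC-only region chr2:153694558-153694836 lies at the start of Dnmt3c, a neighbouring methyltransferase gene of the male germline, and was open on 3 NanogN70 days and no Nanog day.

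At Dnmt3l, the germline and ESC cofactor, the start used by Dnmt3l-201 had no peak outside ESCs. The element over it, chr10:78049455-78050075, stood at 0.62, 0.68 and 0.38 in the 3 ESC libraries and had no peak in MEFs or in any of the 16 transduced libraries. The same held for chr10:78048082-78048385, upstream of that start, at 0.66, 0.47 and 0.66, and for chr10:78049118-78049398, which had a peak in 2 ESC libraries. A different course was seen at chr10:78043074-78043926, downstream of the Dnmt3l-205 start and also within 2 kb of the start of Aire, so that it cannot be assigned to either gene alone. It had no peak in MEFs and stood at 1.28, 1.03 and 0.86 in ESCs. In day order it stood at 0, 0, 0.35, 0.32, 0.26, 0.19, 0.39 and 0.33 with Nanog, and at 0.29, 0, 1.00, 0.52, 0.45, 0.38, 0.43 and 0.32 with NanogN70. With Nanog it had its first peak on day 3 and one on each later day to day 12, below all 3 ESC values. With NanogN70 the day 3 library alone reached the ESC range. The transduced libraries without a peak had the lowest median pileup, 16, so a missing peak there is not a measured absence. ESC minus days 10 and 12 was 1.30 (SE 0.15, adjusted p = 0.000573), in a comparison where all 7 libraries had a peak. Late minus early was 0.85 (SE 0.58, adjusted p = 0.4). It was 1.26 (adjusted p = 0.157) without NanogN70 day 3, and passed in 1 of the settings run, without day 3 in both paths (1.62, adjusted p = 0.0339). Over the other settings the adjusted p was 0.0812 to 0.96. The element before the Dnmt3l-203 start, chr10:78054653-78055535, was open in MEFs (0.26) and in ESCs (0.34, 0.34 and 0.34), and on 5 days with Nanog and 4 with NanogN70. In the neighbouring gene Icosl an ESC-only element at chr10:78067271-78067626 stood at 0.79 ± 0.15 (SD, n = 3) and had a peak on NanogN70 days 7 and 12, beside the Icosl promoter chr10:78068905-78070183, which was open in all 20 libraries.

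The eraser Tet1 is strongly expressed in ESCs. Its main start, Tet1-207, was open in every library, at chr10:62885780-62887670. The relative pileup there was 0.77 in MEFs, 0.56, 0.63 and 0.48 in ESCs, and from 0.29 to 0.55 (median 0.46) with Nanog and from 0.33 to 0.79 (median 0.44) with NanogN70. The MEF value lay above all 3 ESC values. ESC minus days 10 and 12 was 0.24 (SE 0.28, adjusted p = 0.654) at this element. ESCs also had a row of further elements around it. The ESC-only promoter elements chr10:62881264-62881501, chr10:62885492-62885777, chr10:62892555-62893238, chr10:62896674-62897212 and chr10:62898020-62898494 stood at 0.60 ± 0.052, 0.61 ± 0.10, 0.67 ± 0.089, 0.56 ± 0.18 and 0.46 ± 0.069 (SD, n = 3). The first, second and last of them had no peak in any of the 16 transduced libraries, and the third had one on NanogN70 day 12 (0.15). The intronic element chr10:62884206-62884426, ESC-only at 0.58 ± 0.13, had a peak on day 7 of both paths.

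The fourth of them is the Tet1 upstream element printed above, with its AP-1 letters, which lies upstream of Tet1-207 and inside the gene span. The Nanog libraries gave 0, 0.38, 0, 0.18, 0, 0, 0 and 0 over the 8 days, and the NanogN70 libraries gave 0.33, 0.50, 0.10, 0.30, 0.18, 0.31, 0 and 0. It was open on days 1 and 5 with Nanog and on each day from 0 to 8 with NanogN70, below all 3 ESC values except on NanogN70 day 1, which lay above 2 of them, and in no library of days 10 and 12. NanogN70 minus Nanog was 0.94 (SE 0.30, adjusted p = 0.249).

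Tet1 also had an intronic element open in all 20 libraries, chr10:62865039-62865949, at 1.00 in MEFs and 1.34, 1.34 and 1.28 in ESCs. A MEF-only intronic element, chr10:62850778-62851421, stood at 0.92 in MEFs. It was open on 6 Nanog days, to day 10, and on days 0 and 1 alone with NanogN70. Late minus early was -1.76 (SE 0.58, adjusted p = 0.138), and -2.17 (adjusted p = 0.0277) without NanogN70 day 3. The element beyond the end of the gene, chr10:62803887-62804435, was low in MEFs (0.15), stood at 0.53, 0.68 and 0.45 in ESCs, and had no peak on days 10 and 12. ESC minus late was 2.69 (SE 0.14, adjusted p = 2.03e-05) there, with late values that are all 0 and have no spread. Near the other end of the gene, chr10:62912400-62912868 was ESC-only at 0.25 ± 0.033 (SD, n = 3), with no peak in a transduced library. The intron chr10:62832886-62833115, at 0.21 ± 0.029 in ESCs, was the single ESC-only region of the 8 genes with a peak in the Nanog path alone, on day 7.

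The Tet2 promoter, chr3:133543828-133545234, was open in every library. It stood at 1.03 in MEFs and 1.59, 1.21 and 1.03 in ESCs, and ranged from 0.54 to 1.62 (median 0.85) with Nanog and from 0.69 to 1.12 (median 0.93) with NanogN70. The groups overlapped and no comparison reached the threshold. Further into the gene ESCs had a run of intronic elements of which none had a peak in MEFs. The one shown in the sequences, chr3:133533679-133534721, was the highest of them and exceeded the Tet2 promoter in 3 of 3 ESC libraries. It stood at 1.75, 1.79 and 1.24 in ESCs. Over the 8 days the values were 0, 0.44, 0.22, 0.21, 0, 0, 0 and 0 with Nanog and 0.29, 1.06, 0.13, 0.30, 0, 0, 0.18 and 0.32 with NanogN70. It was open early in both paths, had no peak on days 7 and 8 in either, and had one again on days 10 and 12 with NanogN70 alone. ESC minus late was 3.18 (SE 0.58, adjusted p = 0.00623) and NanogN70 minus Nanog was 0.82 (SE 0.33, adjusted p = 0.319).

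The other ESC-only elements in the Tet2 introns had peaks in the NanogN70 path alone or in no transduced library. The element chr3:133524322-133525338 stood at 1.06, 1.08 and 1.21 in ESCs, at 0.17, 0.36 and 0.22 on NanogN70 days 5, 10 and 12, and had no peak on any Nanog day. The element chr3:133532938-133533664 stood at 0.66, 1.03 and 0.72 in ESCs and had 1 other peak, on NanogN70 day 12 (0.20). The element chr3:133518477-133519154 stood at 0.48 ± 0.016 (SD, n = 3) and was open on NanogN70 days 3 and 12. The NanogN70 day 12 library had peaks at 4 ESC-only Tet2 introns and the Nanog day 12 library at 0, while over the genome 14.18% and 5.85% of ESC-only regions had a peak in these libraries, whose median pileups were 41 and 24. No transduced library had a peak at chr3:133515631-133515873, chr3:133506615-133506883 or chr3:133513543-133513805, at 0.47 ± 0.11, 0.31 ± 0.059 and 0.28 ± 0.059 in ESCs, nor at the elements chr3:133552067-133552306 and chr3:133549888-133550162 upstream of the gene, at 0.51 ± 0.058 and 0.31 ± 0.091. The exonic element chr3:133485935-133486177 and the element chr3:133454553-133454810 beyond the end of the gene, at 0.21 ± 0.043 and 0.32 ± 0.018, had no peak outside ESCs either. Altogether 8 of the 13 ESC-only regions of Tet2 had no peak in any of the 16 transduced libraries, 4 had one with NanogN70 alone and 1 with both.

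**Figure D3:**
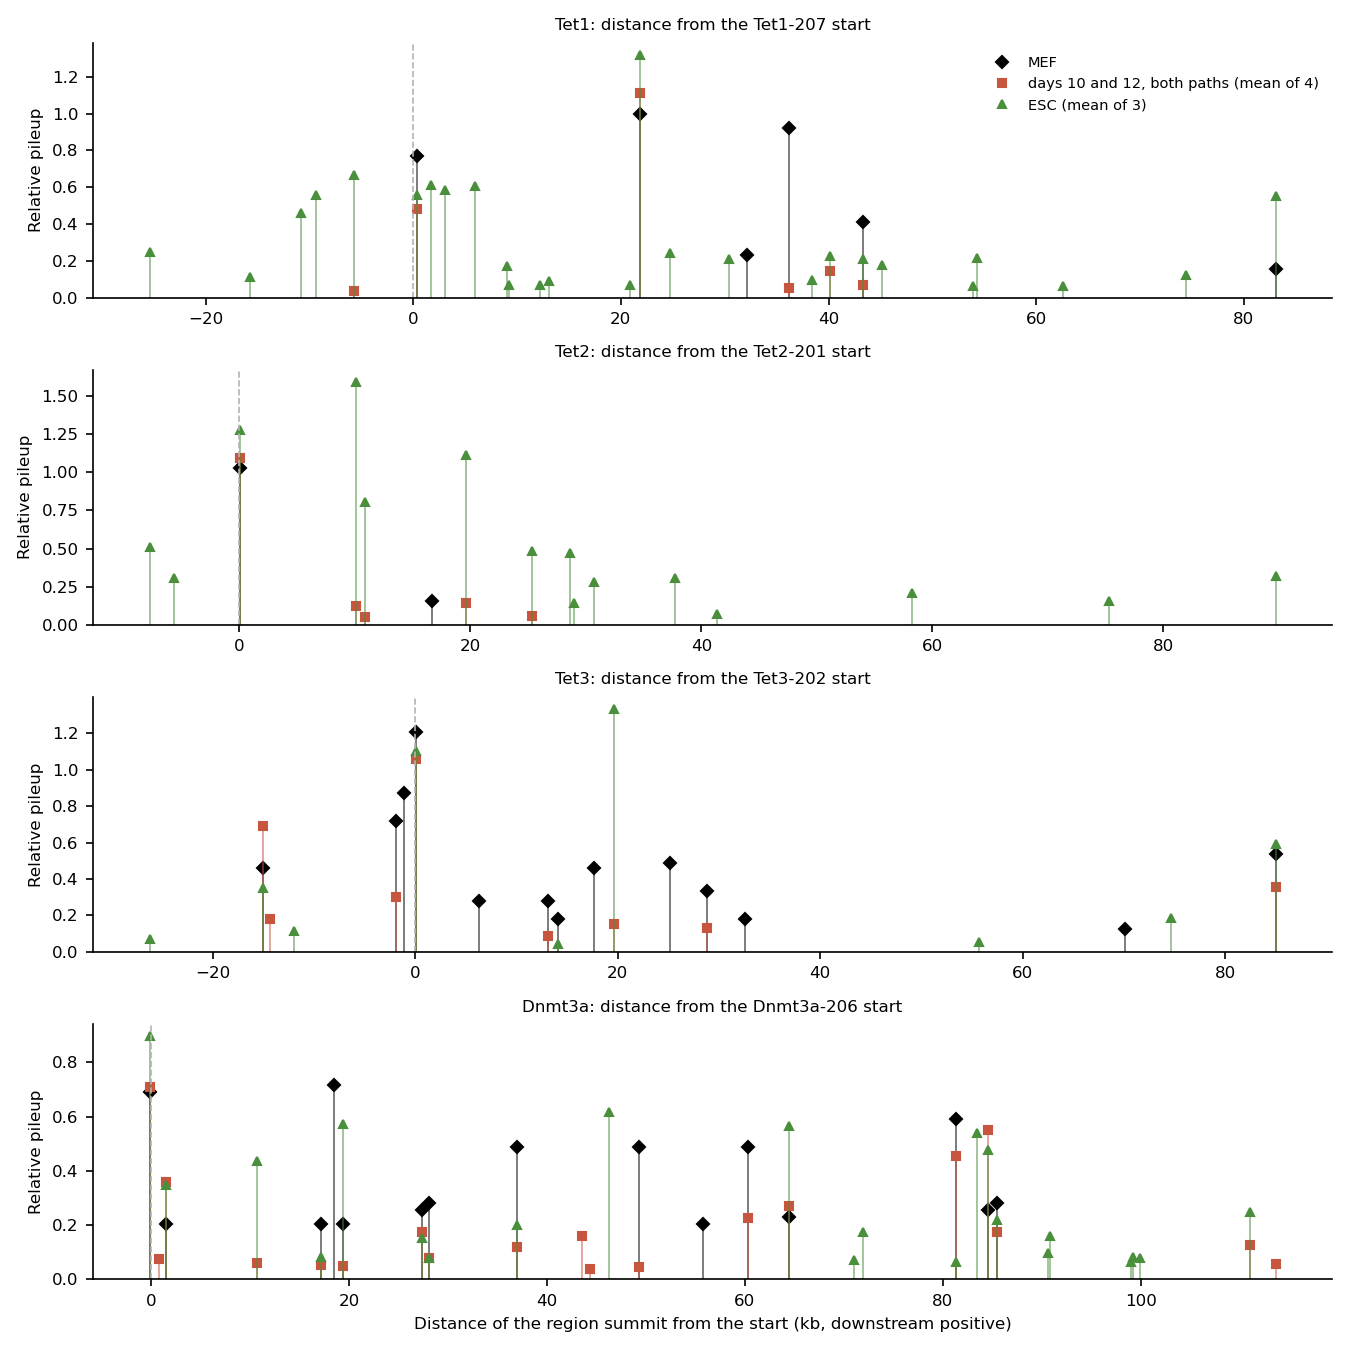
Relative summit pileup (vertical axis) of the regions at Tet1, Tet2, Tet3 and Dnmt3a against the distance of the summit from the start nearest the most open promoter region, in kb with downstream positive. Diamonds are the MEF library, squares the mean of the 4 libraries of days 10 and 12 of both paths with no peak counted as 0, and triangles the mean of 3 ESC libraries, and regions at 0 are not drawn. Tet2 introns and the surroundings of the Tet1 start hold triangles alone or with low squares, and Tet3 holds diamonds near its start.

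Tet3, the TET gene best known from oocytes, zygotes and differentiated cells, had the most MEF-only regions of the 8 genes. The elements at its starts Tet3-202 and Tet3-203 were open in every library. At Tet3-202, chr6:83439995-83442153 stood at 1.21 in MEFs and 0.91, 1.37 and 1.03 in ESCs and ranged from 0.83 to 1.64 (median 1.30) with Nanog and from 1.04 to 1.43 (median 1.23) with NanogN70. At Tet3-203, chr6:83456196-83457443 stood at 0.46 in MEFs, at 0.34, 0.37 and 0.34 in ESCs, from 0.61 to 0.81 (median 0.73) with Nanog and from 0.50 to 0.94 (median 0.69) with NanogN70. All 16 transduced libraries and the MEF library lay above the 3 ESC libraries at Tet3-203. There ESCs were lower than days 10 and 12, with a log2 difference of -0.81 (SE 0.07, adjusted p = 0.000186).

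Upstream of Tet3-202 lay 2 MEF-only elements. The nearer, chr6:83442480-83443068, stood at 0.87 in MEFs and was open on days 0 and 1 with Nanog and on days 0 and 3 with NanogN70. The farther, chr6:83443372-83443865, stood at 0.72 in MEFs. In day order it stood at 0.75, 0, 0.61, 0.46, 0.68, 0.53, 0.39 and 0.50 with Nanog, and at 0.88, 0, 0, 0, 0, 0, 0 and 0.32 with NanogN70. It had a peak on 7 of 8 days with Nanog and on days 0 and 12 with NanogN70. The difference NanogN70 minus Nanog was -1.70 (SE 0.45, adjusted p = 0.189), and it passed the threshold when the test was limited to regions with a peak in at least 6 libraries (adjusted p = 0.0235). The element met that limit only through the Nanog days, where it is high, so this call is a description. The same limit brought in the intronic Dnmt1 element chr9:20943413-20944336 (adjusted p = 0.0242), and under it 2.38% of all regions were higher with NanogN70 and 4.51% lower. A promoter element open with NanogN70 and never with Nanog, chr6:83455147-83456130, lay by the Tet3-203 start, at 0.47, 0.34, 0.32 and 0.39 on days 3, 7, 10 and 12, with no peak in MEFs or ESCs.

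The introns of Tet3 held elements of 3 kinds. The early element printed above, chr6:83371228-83371801, was MEF-only at 0.13. The Nanog libraries gave 0.81, 0.69, 0.48, 0.43, 0.45, 0, 0 and 0 over the 8 days, and the NanogN70 libraries gave 0.96, 1.19, 0.13, 0.17, 0, 0.27, 0 and 0. It was higher than in MEFs on days 0 and 1 of both paths, and after day 7 had a peak in 1 library, NanogN70 day 8. Late minus early was -2.52 (SE 0.47, adjusted p = 0.0209). The NanogN70 element, chr6:83450341-83451252, whose window holds TGCAAAT, had no peak in MEFs, in ESCs or on any Nanog day. With NanogN70 it was 0.62, 0.56, 0.35, 0.22, 0, 0, 0 and 0, open on days 0 to 5 and not afterwards. The change with time, NanogN70 minus Nanog, was -2.59 on the log2 scale. As at the Dnmt3a downstream element, the filter was met through NanogN70 alone and the choice followed the values, so this is a description without a test.

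The third kind was the ESC-only element chr6:83421449-83422309, the highest intronic region of Tet3 in ESCs at 1.22, 1.26 and 1.52. It had no peak on any Nanog day, and with NanogN70 it was 0, 0, 0.30, 0, 0.24, 0, 0.32 and 0.29. The 4 open NanogN70 libraries, days 3, 7, 10 and 12, lay below the lowest ESC library. ESC minus late was 2.82 (SE 0.64, adjusted p = 0.016), and NanogN70 minus Nanog was 0.98 (SE 0.36, adjusted p = 0.297). The MEF-only introns chr6:83412661-83413471 and chr6:83416081-83416775 stood at 0.33 and 0.49 in MEFs. The first was open on 5 Nanog days and 4 NanogN70 days, and the second on 1 day in each path.

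**Figure D4:**
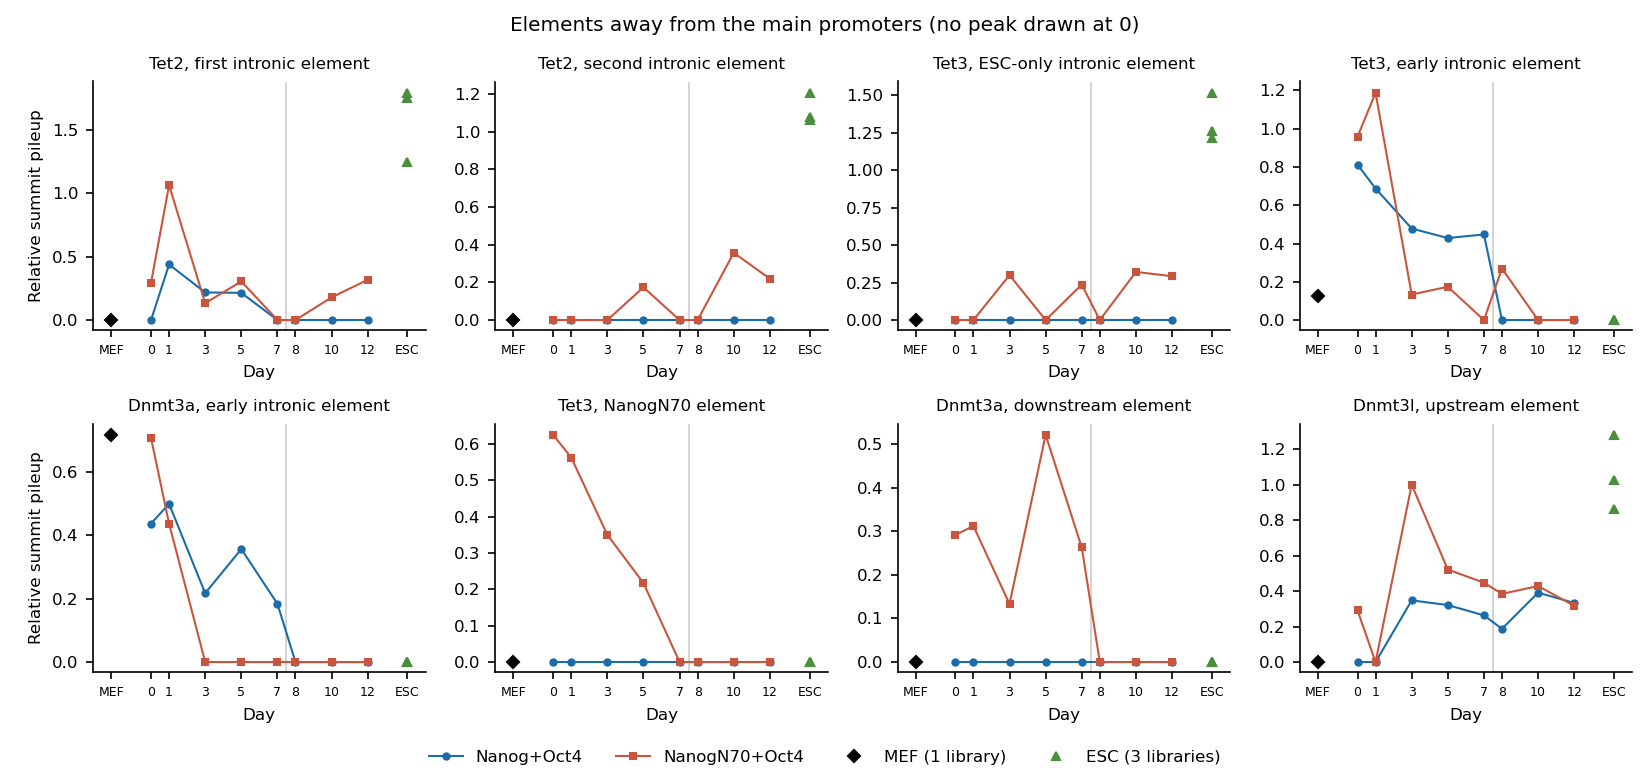
Relative summit pileup (vertical axis, own scale in each panel) by day at 8 elements away from the main promoters, with the MEF library at the left and the 3 ESC libraries at the right, and 0 where no peak was called. Where the Nanog line is not seen it lies at 0. The 2 early elements had no Nanog peak after day 7, and the Tet3 NanogN70 element stood at 0.62 on day 0 and at 0.22 on day 5 with no peak afterwards.

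Of the 47 ESC-only regions of the 8 genes, 25 had no peak in any of the 16 transduced libraries (53.2%, against 66.1% of all ESC-only regions). Another 14 had a peak with NanogN70 and never with Nanog (29.8%, against 16.6%), 7 had peaks in both paths, and 1 had a peak with Nanog alone (2.13%, against 3.06%). With the NanogN70 day 3 library set aside, 28 had no peak in a transduced library (59.6%, against 69.5%) and 11 had one with NanogN70 and never with Nanog (23.4%, against 13.3%). The 14 were 4 at Tet2, 3 at Dnmt3a, 3 at Dnmt3b, 2 at Tet1, 1 at Tet3 and 1 at Dnmt3l. The number of ESC-only regions open by day was 1, 3, 5, 6, 6, 4, 3 and 1 with Nanog and 6, 2, 12, 5, 10, 4, 4 and 12 with NanogN70. The NanogN70 libraries of days 3, 7 and 12 held 10 to 12 of them, and the Nanog libraries never more than 6. Those NanogN70 libraries had the highest median pileups of their path, 60, 38 and 41, against 16 to 28 on its other days. The highest Nanog median was 38, on day 7. The part of signal height in these counts was not tested. Of all ESC-only regions of the genome 11.1% to 15.4% had a peak in those 3 libraries, and 1.55% to 9.07% in the Nanog libraries. Of the 20 MEF-only regions, 11, 11, 7, 7, 9, 10, 5 and 3 were open by day with Nanog and 10, 7, 7, 4, 4, 2, 0 and 3 with NanogN70. Over the genome the share of MEF-only regions with a peak was 6.52% to 31.2% with Nanog and 3.07% to 36.5% with NanogN70, and was lower with NanogN70 on every day but day 0. Of these 20, 2 had no peak in any transduced library (10.0%, against 44.4% of all MEF-only regions). There were 8 regions with peaks in at least 2 NanogN70 libraries and nowhere else (4.85%, against 4.39% of all regions), and 0 with peaks in at least 2 Nanog libraries and nowhere else (against 2.12%).

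**Figure D5:**
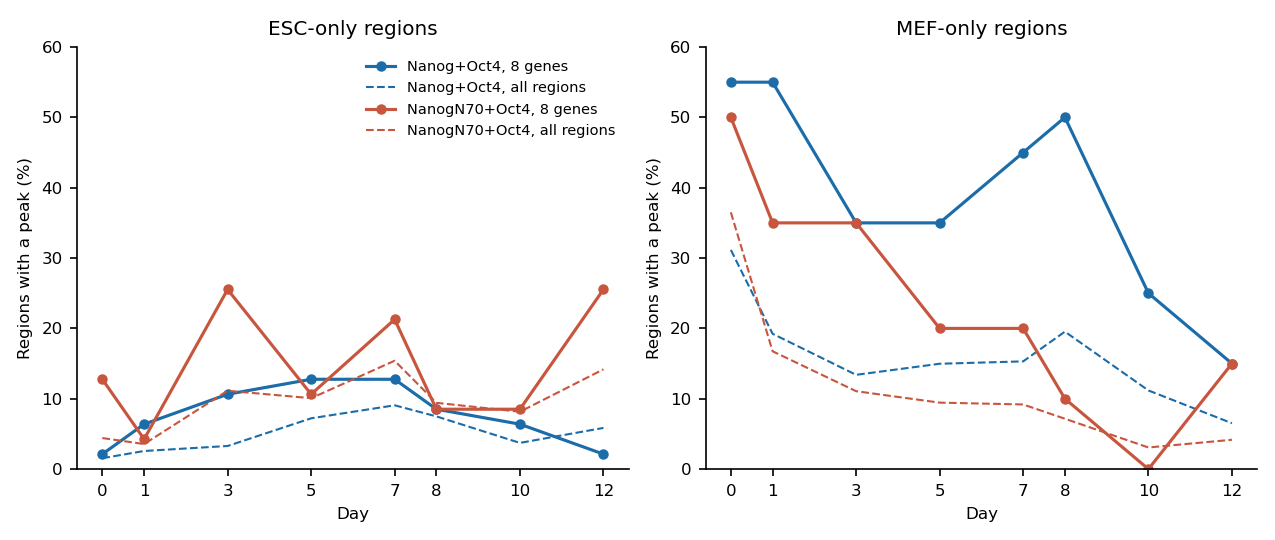
Share of the 47 ESC-only (left) and the 20 MEF-only (right) regions of the 8 genes with a peak, in percent, by day and path (solid lines with points, 1 library each), beside the share of all such regions in the genome (dashed lines). The ESC-only share with NanogN70 reached 25.5% on days 3 and 12 (the genome stood at 11.1% on day 3), and on day 8 the MEF-only regions with a peak were 10 of 20 with Nanog and 2 of 20 with NanogN70 (19.5% and 7.16% over the genome).

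Over all 165 regions, the numbers open by day were 31, 35, 33, 40, 51, 41, 31 and 28 with Nanog and 44, 36, 67, 43, 52, 33, 27 and 43 with NanogN70. The mean difference NanogN70 minus Nanog was 6.88 regions (SD 13.4 between days, SE 4.75, n = 8), with more regions open with NanogN70 on 6 of 8 days, and an exact two-sided sign-flip test over the days gave p = 0.188. Without day 3 it was 3.00 (SE 3.17, exact p = 0.375). Both p-values measure the spread between days with 1 library per path each, and not between repeats of the experiment. With equal numbers of peaks per library, taken from the top by score, the difference was -1.25. Regions open on more days with NanogN70 numbered 68 (41.2%, against 35.4% of all regions), and those open on more days with Nanog 28 (17.0%, against 21.7%). There were 35 regions with peaks in NanogN70 libraries and no other (21.2%, against 19.9%), and 17 when the NanogN70 day 3 library was set aside (10.3%, against 13.5%). There were 7 regions with peaks in Nanog libraries and no other (4.24%, against 9.09%).

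A total of 96 of the 165 regions had a peak in at least 3 libraries and were tested. In the comparison of NanogN70 with Nanog over the 16 libraries with day as a term, 0 of the 96 passed an adjusted p of 0.05 by limma, where 0.0528% of all regions tested were higher and 0.0891% lower. At an unadjusted p under 0.05 there were 15, of which 9 were higher and 6 lower with NanogN70 (15.6%, against 13.7% of all regions). Without the day term limma also called 0. The exact test that flips the sign of the 8 daily differences cannot give a two-sided p below 0.00781 before adjustment. It called no region of the genome (7 members, 7.29%, had an unadjusted p under 0.05, against 6.93% of all regions), so its result says nothing about the members. None of the 29 promoter elements tested passed (0.0476% and 0.0130% of all promoter regions), nor did any of the 8 most open ones, 1 per gene (0.0276% and 0.0207% of such regions). At these 8 the differences lay between -0.12 and 0.65 on the log2 scale, with SEs of 0.071 to 0.38. The change with time differed between the paths at 0 of the 96 regions by limma (2 at an unadjusted p under 0.05, the Tet3 and Dnmt3a elements open with NanogN70 alone, which is 2.08% against 3.73% of all regions), where 0.00% of all regions passed in either direction.

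From the early to the late days, 1 of the 96 rose, the Dnmt1 promoter, and 2 fell, the early elements of Tet3 and Dnmt3a. Over the genome 1.69% of regions rose and 2.50% fell, and among promoter regions 3.75% and 2.21%. Within either path alone none of the 96 passed, and 6 regions with NanogN70 (6.25%, against 11.04% of all regions) and 7 with Nanog (7.29%, against 7.61%) had an unadjusted p under 0.05. Without the NanogN70 day 3 library 2 rose (2.08%, against 2.03% of all regions) and 6 fell (6.25%, against 6.24%). The ones that joined were the Dnmt3a element downstream of Dnmt3a-218, which rose, and the MEF-only elements of Tet1 and Dnmt1, the Dnmt3a element chr12:3887261-3888067 and the intronic region chr12:3854484-3854801, which fell. The Dnmt1 element and the region at 3854484 had no late peak and 1 peak outside the early days, so that their calls are descriptions. Each day has 1 library per path, so these p-values measure the spread between these libraries and not between repeats of the experiment.

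Between ESCs and days 10 and 12, 36 of the 96 regions were higher in ESCs and 2 lower, against 29.8% and 3.80% of all regions tested. Of the 36, 24 had no peak in any of the 4 late libraries. Those 24 were tested only because of peaks elsewhere, mostly in ESCs, and their late values have no spread, so the count is a description. Of the 36, 25 met the filter of 3 libraries only through ESCs. When a peak in at least 6 libraries was required, 10 were higher and 2 lower of 50 tested, against 16.1% and 7.14% of all regions under the same limit. The 12 regions with a late peak were 4 at Tet2, 2 at Dnmt3a, 2 at Dnmt3l and 1 each at Tet1, Tet3, Dnmt3b and Uhrf1. Some of these 12 also met the filter of 3 libraries only through ESCs. Of the 29 promoter elements tested, 9 were higher and 2 lower (23.6% and 12.8% of all promoter regions). Since 7 of the 9 met the filter of 3 libraries only through ESCs, this count is a description too. The 2 lower regions were the Tet3-203 start and the Dnmt3a element chr12:3887261-3888067.

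Other genes of the pathway were followed at their most open promoter region, 1 per gene for 31 genes. By limma 0 differed between the paths (0.0276% of all such promoter regions in the genome were higher and 0.0207% lower). At an unadjusted p under 0.05, 4 were higher and 2 lower with NanogN70, against 8.73% and 7.56% of such regions. With time 1 rose and 0 fell (5.01% and 2.38% of such regions). At an unadjusted p under 0.05, 6 were higher and 1 lower late, against 17.9% and 10.8%. Uhrf2, a relative of Uhrf1, was higher late by 0.64 (SE 0.11, adjusted p = 0.0157). Between ESCs and days 10 and 12, 5 of the 31 were higher in ESCs and 12 lower, against 19.8% and 18.4% of promoter regions. The 5 were Dppa3, an inhibitor of UHRF1, at 2.84 (SE 0.41, adjusted p = 0.00198), Prdm14, a repressor of de novo methyltransferases, at 1.58, and Hells, Zfp57 and Gadd45a at 0.64 to 0.67. Prdm14 had a peak in the 3 ESC libraries and on NanogN70 day 12 alone, so its region was tested only through the group where it is high and its difference is a description.

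The 12 promoters that were lower in ESCs came from every group. Tdg, whose product removes the oxidised bases made by TET enzymes, differed by -1.76 (SE 0.11, adjusted p = 4.4e-05), and Uhrf2 by -1.16 (SE 0.08, adjusted p = 5.43e-05). The methyl donor genes Mat2a and Ahcy were lower, at -0.70 and -0.65, and so were 3 of 4 CXXC genes (Cxxc4, Cxxc5 and Kdm2b), at -0.91, -0.58 and -0.50. The readers Mbd1 and Mbd3 differed by -0.73 and -0.63, and Gadd45b, Trdmt1 and Ehmt2 by -0.74, -0.60 and -0.62. Of the 8 genes themselves 1 was higher in ESCs, the Dnmt3l region shared with Aire, and 0 were lower.

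For each of the 8 genes, the promoter of another coding gene with the most similar course over the 20 libraries was taken by Pearson's r of log2 relative pileup, among 13984 promoters. It was Polr2e for Dnmt1 (r = 0.90), Nynrin for Dnmt3a (r = 0.90), Crybg1 for Dnmt3l (r = 0.89), Taf15 for Tet2 (r = 0.82), Magoh for Dnmt3b (r = 0.81), Cblc for Uhrf1 (r = 0.76), Dbndd2 for Tet3 (r = 0.74) and Pam for Tet1 (r = 0.72). Each is the best of many candidates over libraries that share a course and a scaling, and is a description.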

How the data were processed

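ATAC-seq, which marks open chromatin by transposase insertion, was measured in 20 libraries. The authors trimmed reads (Trim Galore 0.6.4), aligned them to mm10 (Bowtie2 2.4.5), removed repetitive, low-quality and mitochondrial reads (SAMtools 1.16.1) and called peaks in each library separately (MACS 1.4.2, duplicates kept, with a fixed shift size in place of a model). The deposited peak score is the log10 of p times 10 with its sign turned, with a lowest value of 50, and the deposited summit pileup is a coverage signal in whole tags, unscaled, with a lowest value of 3. No source used here gives the read depth, so the depth is unknown and no counting interval is given. Libraries held 44126 to 125467 peaks, and a deeper library passes the threshold at more sites.

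Peaks overlapping by 1 bp were merged, leaving out 525 peaks on 14 other sequence names, and placed on GRCm38 with GENCODE M21. Pileups were divided by the library median over constitutive regions. Differences were tested with limma 3.58.1 (R 4.3.3) on log2(relative pileup + 0.1), a scale that understates changes of low regions, and Benjamini-Hochberg adjustment over all regions tested, called at an adjusted p of 0.05. Data were simulated with normal noise from the 25068 regions that had a peak in most of the libraries. In them the comparison of the paths recovered 82% of changes of 2 on the log2 scale, and that of late with early days 74.5%. That of ESCs with late days recovered 52% and that of the time courses 30%. For changes of 1 the shares were 40%, 35.5%, 0% and 0%. Regions with many missing peaks, as many of the members are, were not simulated, so these shares do not apply to them. Python 3.11.15 with pandas 2.3.3 and numpy 2.4.6 was used otherwise.

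Members and lists were chosen with earlier results of these data known. Regions named were all promoter elements and 30 of 44 others, taken in order of the F statistic from those called in a comparison, those of the ESC-only or MEF-only class with set numbers of open days, and the highest of each gene in ESCs and MEFs. Another 9 regions outside promoters were chosen after their values were seen: the NanogN70 element and the 2 MEF-only introns of Tet3, the MEF-only and the constitutive intron of Tet1, the downstream element and the intron at 3854484 of Dnmt3a, the first intronic element of Dnmt1 described and the start of Kdm4b. Some genes of the pathway lists are not reported here.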

Additional observations from a re-analysis of the deposited data

How the results depend on the processing

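The 165 regions split into 47 ESC-only, 20 MEF-only and 23 shared ones as deposited. With a minimum score of 100 the ESC-only count was 30, and with the same number of top-scoring peaks kept in each library the 3 classes held 21, 13 and 12, fewer by construction. Leaving out 1 ESC library gave 36 to 40 ESC-only, 20 to 23 MEF-only and 23 to 27 shared regions. A limit of 1 kb in place of 2 kb left 24 promoter elements of 43. The path comparison by limma called 0 regions in every setting run, without the day term too, except the filter of at least 6 libraries, which called 2, both lower with NanogN70 (the exact sign-flip test called no region of the genome and is not counted). Of these 2, the Tet3 element met that filter only through the Nanog days, where it is high. Late minus early called 3, but 7 with no filter, 8 without day 3, 8 without the NanogN70 day 3 library, 8 for days 10 and 12 against days 0 and 1, 0 in the NanogN70 libraries alone and 0 in the Nanog libraries alone; these last use fewer libraries, and the cause of the others was not tested. The difference of the time courses called 0, and 2 without day 3, both open with NanogN70 alone and so not independent of the filter. ESC minus late called 38, 12 with a peak in at least 6 libraries and 32 to 35 without 1 ESC library. Of 419 values for the 38 regions under the alternatives 392 kept direction and call and 27 lost the call. A region not tested under a setting gave no value there, so calls lost because a region left the test are not among the 27. Of 39 values for the 3 regions of late minus early 30 kept both and 9 lost the call. In either comparison 0 were reversed. The settings without the NanogN70 day 3 library and within 1 path were chosen after seeing the data. Tag heights of 5 to 20, as at many of the ESC-only and MEF-only elements, are close to the lowest deposited pileup of 3, so that a missing peak there is not a measured loss. The path comparison was paired by day through its day term. Replicate numbers are given for the ESC libraries alone, so no replicate block was fitted.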
